A study of Saccharomyces cerevisiae with 8 samples.

Results

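The 7 genes of trehalose synthesis and breakdown in Saccharomyces cerevisiae were followed in a table of RNA sequencing read counts. They were taken by gene ID as TPS1 (YBR126C), TPS2 (YDR074W), TSL1 (YML100W), TPS3 (YMR261C), NTH1 (YDR001C), NTH2 (YBR001C) and ATH1 (YPR026W), which is 7 of the 7126 genes in the table. All 7 had enough counts to be tested. The 8 libraries come from BY4741, a haploid laboratory strain with mating type a, and form 4 groups of 2: the mutation strain under the titles HP and nHP, and the control strain under the titles HP and nHP. Every culture was grown in SC-Ura, a synthetic medium without uracil, and collected in mid-exponential phase. The mutation strain is described as more tolerant of oxidation stress, and the sources used here do not name its mutated gene. The series describes growth with and without hydrogen peroxide, but the medium entry of the samples places peroxide with every control strain library and with none of the mutation strain, under both titles. HP and nHP are therefore used as titles only, and nothing is said of which cultures contained peroxide, and if the medium entry were right, strain and peroxide could not be told apart. The labels do not say whether the replicate libraries come from different cultures, so each p-value reflects only the spread among these samples, and that spread may be technical.

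Trehalose is a disaccharide of glucose that yeast stores as a reserve and that protects proteins and membranes under heat, drying and oxidation. Tps1 joins glucose from UDP-glucose to glucose 6-phosphate, Tps2 removes the phosphate, and Tsl1 and Tps3 are large subunits of the same enzyme complex that regulate it. The sugar is split back to glucose by neutral trehalases in the cytosol, of which Nth1 is the main form, switched on by protein kinase A, and Nth2 its paralog, and by the acid trehalase Ath1, which is needed for growth on trehalose supplied from outside. Transcripts of several of these genes are known to rise in stress through the transcription factors Msn2 and Msn4, which bind the stress response element AGGGG.

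Total counts ran from 8296523 to 11202362 per library, of which the 7 genes held 0.422% to 0.593%. CPM below stands for counts out of 1000000 per library after TMM, a scaling that corrects for differences in composition between libraries. The HP control libraries differed most from each other: 134 of 5449 genes at 10 CPM or more differed by over 1.5-fold between them, against 15 of 5421 genes in the HP mutation group. All 7 trehalose genes were higher in replicate 1 than in replicate 2 of the HP control group, by up to 1.47-fold. The same held for all 7 in the HP mutation group, by up to 1.17-fold, and in the nHP control group, by up to 1.16-fold, and for 5 of 7 in the nHP mutation group. The libraries of the mutation strain did not look like mating type a. Transcripts of 6 genes that mark mating type a summed to 78.6 and 80.9 CPM in the HP mutation libraries and to 49.95 and 54.3 CPM in the nHP mutation libraries, against 2009 and 2337 CPM in HP control and 2522 and 2876 CPM in nHP control; none of the 6 was at 0 in any library. All 6 were lower in the mutation strain under both titles, and their part in the results below was not tested. Transcripts of 4 genes that mark mating type alpha were low in both strains. They summed to 68.7 and 63.1 CPM in HP mutation and 57.4 and 57.4 CPM in HP control. In nHP they summed to 50.2 and 45.9 CPM in the mutation strain and 68.7 and 69.6 CPM in the control strain. In such bulk samples, fewer cells of a type and less RNA per cell cannot be told apart.

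Per unit of gene length, TPS1, TPS2, TSL1 and NTH1 were far more abundant than TPS3, NTH2 and ATH1. On the deposited RPKM scale (reads divided by gene length in kilobases and by library total), TPS1 was highest in every library, at 961 to 1286 RPKM, above 97.5% of all tested genes by its mean. TPS2 followed at 374 to 510 RPKM in every library. TSL1, at 222 to 328 RPKM, and NTH1, at 214 to 340 RPKM, changed places between libraries, with NTH1 above TSL1 in both HP mutation libraries and in HP control replicate 2. TPS3 ranged from 82.1 to 110 RPKM and NTH2 from 53.1 to 129 RPKM. NTH2 stood above TPS3 in both HP mutation libraries and below it in the other 6. ATH1 was lowest throughout, at 25.4 to 84.7 RPKM.

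The sequences upstream of the 7 genes are shown because the genes carry very different numbers of stress response elements. In the 500 bases before the start codon, read from the R64 reference genome and its annotation, AGGGG or its complement CCCCT occurred 6 times for TPS1, 5 times for TSL1, 4 times for TPS2, 3 times for NTH1, 2 times for TPS3, once for ATH1 and not at all for NTH2. Of 6000 coding genes with such a window, 34.1% held at least 1 copy, 8.1% at least 2 and 0.45% at least 4, and TPS1 was the only gene with 6. The window of TPS1 reaches beyond the 457 bases to the next annotated gene, and so do those of TSL1 at 312 bases, NTH2 at 424 and TPS3 at 356. The counts include copies that lie beyond these distances. For TPS1 such a copy lies 472 to 468 bases before the start codon. For TSL1 such copies lie at 378 to 374 and at 326 to 322 bases. Without them the order of the genes by number of copies would differ. A 25-base stretch for each gene that holds a copy is given 5′ to 3′ in the direction of the gene, with whole copies of the element in capitals. These are matches of letters, not shown to be bound, and the absence of a match says only that these letters are not in this window. The sources used here do not name the build behind the counts, and genes were joined to R64 by ID; the gene length implied by the counts and RPKM equalled that of R64 for all 7.
TPS1, R64 chrII:490617-490641, minus strand: AGGGGctctcAGGGGggcgccatgg
TPS2, R64 chrIV:593462-593486, plus strand: caacggtcaaCCCCTtcctttctat
TSL1, R64 chrXIII:70449-70473, plus strand: ggtagaaccaAGGGGctagcacact
TPS3, R64 chrXIII:793572-793596, minus strand: attaattaatCCCCTtcagcacgca
NTH1, R64 chrIV:452803-452827, minus strand: agCCCCTtatCCCCTagttaccgaa
ATH1, R64 chrXVI:615065-615089, plus strand: ctcttctttgCCCCTcaaaatttat

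None of the 7 genes overlaps another annotated gene in R64. Of the pairs within the 7 genes, NTH1 and NTH2 had the highest share of identical bases, at 72.1% of the shorter gene. Their longest identical run is 33 bases, which starts at base 972 of NTH1 and base 1059 of NTH2. It counts exact matches only, and longer stretches with a few differing bases were not searched for. The run therefore sets no bound on how far reads of the paralogs could be exchanged, and such exchange was not tested.
NTH1 and NTH2 shared run: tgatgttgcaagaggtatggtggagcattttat

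Among the HP libraries, the question is how the mutation strain differs from the control strain under that title. NTH2 and ATH1 were about double in the mutation strain, while the 4 synthesis genes and NTH1 did not pass the test. NTH2 had 297 and 286 CPM in the HP mutation libraries, against 152 and 123 CPM in the HP control libraries. ATH1 had 303 and 272 CPM in the HP mutation libraries, against 159 and 108 CPM in the HP control libraries. For both genes the lower mutation library lay well above the higher control library. NTH2 rose 2.12-fold (log2 fold change 1.08 ± 0.12, standard error; edgeR adjusted p = 0.000122, from its quasi-likelihood F test and the Benjamini-Hochberg method over all genes). ATH1 rose 2.16-fold (1.11 ± 0.17, edgeR adjusted p = 0.000791). These folds were above those of 97.8% and 98% of all tested genes. Both calls were kept under every one of 17 alternative settings, with log2 fold changes from 0.96 to 1.24 for NTH2 and from 0.88 to 1.41 for ATH1.

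NTH1, which encodes the main neutral trehalase, had 753 and 713 CPM in the HP mutation libraries, against 652 and 513 CPM in the HP control libraries. The groups did not overlap, but the difference of 1.26-fold missed the threshold (log2 fold change 0.33 ± 0.12, edgeR adjusted p = 0.0574). It passed in 4 of 17 alternatives: DESeq2, the 10 CPM filter, the replicate number as a block, and without HP control replicate 1 (0.52, edgeR adjusted p = 0.00309). Its adjusted p over all 17 ran from 0.00309 to 0.342. On the synthesis side, TPS1 had 1821 and 1727 CPM in the HP mutation libraries and 1892 and 1419 CPM in HP control. TPS2 had 1349 and 1208 CPM in HP mutation and 1304 and 998 CPM in HP control. In these genes and in TSL1 and TPS3 the groups overlapped, which left 3 of the 7 genes with both mutation libraries above both control libraries, where 30.5% of all tested genes had that order, 36.7% the opposite one and 67.2% either. The spread between the HP control libraries was wider than the difference between the strains. The log2 fold changes were 0.10 ± 0.14 for TPS1, 0.15 ± 0.14 for TPS2, 0.08 ± 0.15 for TSL1 and -0.11 ± 0.10 for TPS3. Without HP control replicate 1, TSL1 passed as well (0.35, edgeR adjusted p = 0.0472), while without HP control replicate 2 TSL1 stood at -0.13, TPS1 at -0.07 and TPS2 at -0.01. In all, 2 of the 7 genes rose and none fell, where 14.7% of all 6174 tested genes rose, 14% fell and 28.7% were called in either direction. The median log2 fold change of the 7 was 0.15, beside -0.05 for all genes.

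**Figure D1:**
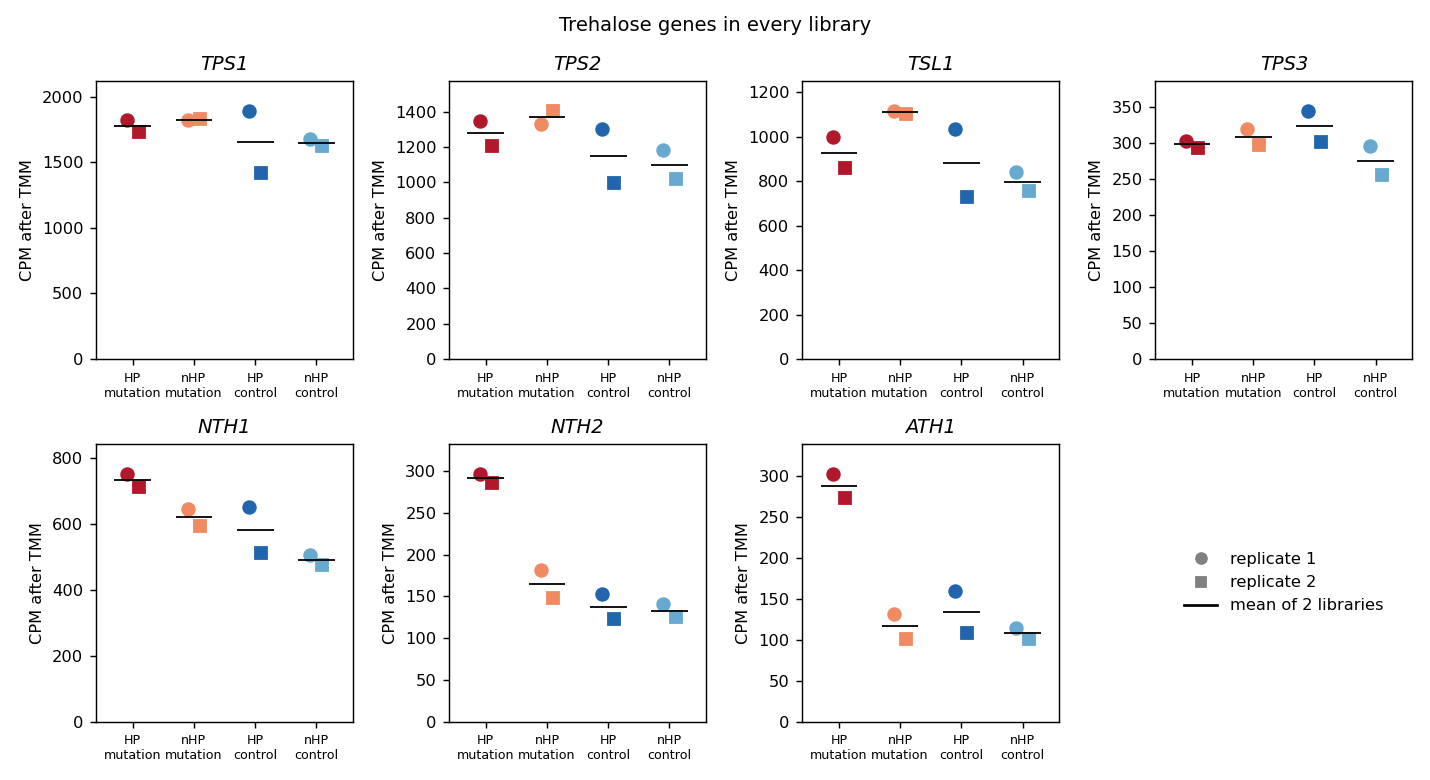
CPM after TMM (vertical axes, from 0) of each trehalose gene in the 8 libraries, by strain and title; circles are replicate 1, squares replicate 2 and bars the mean of the 2 libraries. NTH2 and ATH1 stand at 272 to 303 CPM in the HP mutation libraries and at 101 to 181 CPM in the other 6, while TPS1 lies between 1419 and 1892 CPM in all 8.

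Within the mutation strain, the HP libraries were compared with the nHP libraries, and the same pair of trehalase genes stood out. NTH2 had 297 and 286 CPM in HP, against 181 and 148 CPM in nHP, a rise of 1.77-fold (log2 fold change 0.82 ± 0.12, edgeR adjusted p = 0.000311). ATH1 had 303 and 272 CPM in HP, against 132 and 101 CPM in nHP, a rise of 2.47-fold (1.31 ± 0.17, edgeR adjusted p = 0.000147). Both calls were kept under all 17 alternatives. The comparison shares the HP mutation libraries with that between the strains, so the rises in these libraries are counted in both.

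NTH1 had 753 and 713 CPM in the HP libraries of the mutation strain, against 647 and 594 CPM in its nHP libraries. Its log2 fold change of 0.24 ± 0.12 did not pass (edgeR adjusted p = 0.115), but passed under 6 of 17 alternatives, with an adjusted p from 0.0267 to 0.341 over all of them. TSL1, a regulatory subunit of the synthase complex, had 999 and 857 CPM in HP, against 1116 and 1102 CPM in nHP. The groups did not overlap, as in 79.8% of all tested genes in this comparison (41.1% with HP above nHP and 38.7% with HP below it), and the log2 fold change of -0.26 ± 0.15 did not pass either (edgeR adjusted p = 0.182). With the replicate number as a block TSL1 was called lower (-0.26, edgeR adjusted p = 0.0439), while over all alternatives its adjusted p ran from 0.0439 to 0.635. TPS1, TPS2 and TPS3 lay within 0.10 of 0 on the log2 scale, each with a standard error larger than its value. Their signs turned under library-total scaling, where the median of all genes was 0.14 in place of 0.02. Of the 7 genes, 2 rose and none fell (3 rose and 1 fell with the block, NTH1 and TSL1 being added), but in this comparison 25.2% of all genes rose, 24.1% fell and 49.3% were called in either direction, so the count by itself does not set the 7 apart. ATH1 stood above 97.6% of all genes in fold change and NTH2 above 93%. The median of the 7 was -0.04, beside 0.02 for all genes.

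**Figure D2:**
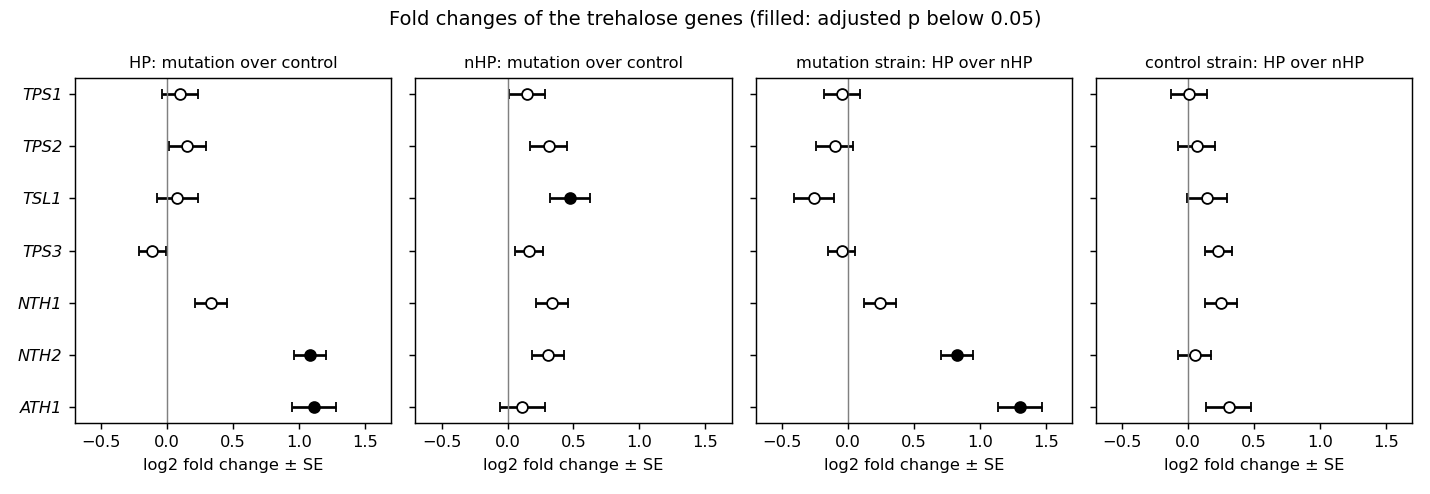
Log2 fold change with its standard error (horizontal axes) of the 7 genes in the 4 pairwise comparisons; filled points have an adjusted p below 0.05. NTH2 and ATH1 lie at 0.82 to 1.31 in the HP strain comparison and within the mutation strain, and TSL1 is called in the nHP strain comparison at 0.48.

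In the control strain, no trehalose gene was called between HP and nHP. ATH1 had 159 and 108 CPM in HP, against 114 and 101 CPM in nHP. NTH2 had 152 and 123 CPM in HP, against 141 and 125 CPM in nHP. In both genes the groups overlapped. The log2 fold changes were 0.31 ± 0.17 for ATH1 and 0.05 ± 0.12 for NTH2. NTH1, at 652 and 513 CPM in HP and 507 and 475 CPM in nHP, and TPS3, at 345 and 302 CPM in HP and 296 and 256 CPM in nHP, did not overlap, as in 38.8% of all tested genes (19.8% with HP above nHP and 19% with HP below it), but missed the threshold (0.25 ± 0.12, edgeR adjusted p = 0.477, and 0.23 ± 0.10, edgeR adjusted p = 0.423). TPS1, TPS2 and TSL1 stood at 0.01 ± 0.14, 0.06 ± 0.14 and 0.14 ± 0.15. Before adjustment, TPS3 had the lowest edgeR p of the 7, at 0.0475. The share of all tested genes below 0.05 without adjustment was not counted. DESeq2 called none of the 7, and neither did limma on RPKM. Few genes were called here at all, 1.96% of the 6174 in either direction, 1.44% of them upward and 0.518% downward. Without HP control replicate 2, whose counterpart carried the higher values of all 7 genes, ATH1 passed (0.56, edgeR adjusted p = 0.027).

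The HP difference of the mutation strain was then set against that of the control strain. For NTH2 the log2 difference was larger in the mutation strain by 0.78 ± 0.17 (edgeR adjusted p = 0.00808), and for ATH1 by 1.0 ± 0.24 (edgeR adjusted p = 0.0105). The other 5 did not pass: TSL1 stood at -0.40 ± 0.22, TPS3 at -0.28 ± 0.15, TPS2 at -0.16 ± 0.20, TPS1 at -0.05 ± 0.19 and NTH1 at -0.0048 ± 0.17. NTH1 thus had HP differences of 0.24 in the mutation strain and 0.25 in the control strain, side by side. Both calls were lost without nHP mutation replicate 2, where NTH2 stood at 0.66 (edgeR adjusted p = 0.0522) and ATH1 at 0.84 (edgeR adjusted p = 0.0682), and kept in the other 15 alternatives. TSL1 passed downward without HP control replicate 2 (-0.62, edgeR adjusted p = 0.0219) and with the replicate number as a block (-0.39, edgeR adjusted p = 0.049). Of all genes, 14.6% were higher, 14.6% lower and 29.2% called in either direction.

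Among the nHP libraries, all 7 genes had a positive fold change in the mutation strain over the control strain, from 0.11 for ATH1 to 0.48 for TSL1 on the log2 scale, and TSL1 alone was called. It had 1116 and 1102 CPM in the nHP mutation libraries, against 840 and 755 CPM in the nHP control libraries, a rise of 1.39-fold (log2 fold change 0.48 ± 0.15, edgeR adjusted p = 0.0461). That call lies close to the threshold and was lost in 10 of 17 alternatives, among them each of the 4 that left out an nHP library, with an adjusted p from 0.00312 to 0.25 over all of them. Both mutation libraries lay above both control libraries in 6 of the 7 genes, where 30% of all tested genes had that order, 35.2% the opposite one and 65.2% either. ATH1 was the exception at 132 and 101 CPM in nHP mutation and 114 and 101 CPM in nHP control. TPS2 had 1332 and 1406 CPM in nHP mutation, against 1185 and 1018 CPM in nHP control (0.31 ± 0.14, edgeR adjusted p = 0.134). NTH1 had 647 and 594 CPM in nHP mutation, against 507 and 475 CPM in nHP control (0.34 ± 0.12, edgeR adjusted p = 0.0671). NTH2 had 181 and 148 CPM in nHP mutation, against 141 and 125 CPM in nHP control (0.31 ± 0.12, edgeR adjusted p = 0.0996). With the replicate number as a block, TPS2, NTH1 and NTH2 were called beside TSL1. TPS1 and TPS3 stood at 0.15 ± 0.14 and 0.16 ± 0.10. Without composition scaling the median of all genes was -0.15 in place of -0.02, TSL1 lost its call (0.35, edgeR adjusted p = 0.103) and ATH1 stood at -0.01. Over all genes, 11.4% rose, 9.91% fell and 21.3% were called in either direction, and the median of the 7 was 0.31.

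Ratios of RPKM within a library do not depend on the scaling between libraries. They come from the same counts as the fold changes above and are not separate evidence. For NTH2 and ATH1, each over NTH1, they set the HP mutation libraries apart. NTH2 stood at 0.38 and 0.386 of NTH1 in the HP mutation libraries, 0.27 and 0.24 in nHP mutation, 0.225 and 0.232 in HP control, and 0.267 and 0.254 in nHP control. ATH1 stood at 0.249 and 0.237 of NTH1 in HP mutation, 0.126 and 0.105 in nHP mutation, 0.151 and 0.131 in HP control, and 0.14 and 0.132 in nHP control. Both ratios were higher in the HP mutation libraries than in any of the other 6. The 3 trehalase genes together made up 20.4% and 20.7% of the summed RPKM of all 7 genes in HP mutation, 15.6% and 14.0% in nHP mutation, 15.4% and 15.9% in HP control, and 14.2% and 14.1% in nHP control. The ratio of TPS2 to TPS1, for the enzymes of the consecutive synthesis steps, varied little, between 0.347 and 0.426 over the 8 libraries. TSL1 stood at 3.34 and 3.55 times TPS3 in the nHP mutation libraries, against 2.72 and 2.83 in nHP control, and at 3.16 and 2.8 times in HP mutation, against 2.87 and 2.31 in HP control. These ratios show unequal amounts of transcript, not that a gene of the pair was constant, and were not tested.

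**Figure D3:**
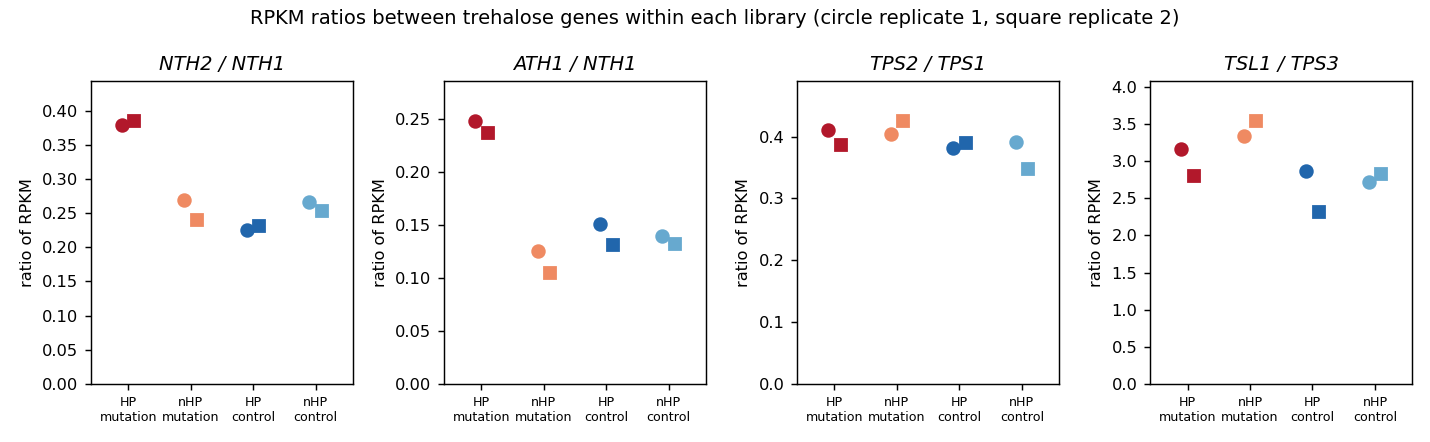
Ratio of RPKM between members within each library (vertical axes, from 0), by strain and title. NTH2 over NTH1 and ATH1 over NTH1 are highest in the HP mutation libraries, at 0.38 and 0.386 and at 0.249 and 0.237, and TPS2 over TPS1 stays between 0.347 and 0.426.

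The genes around the pathway moved unevenly in the HP strain comparison, in which 14.7% of all genes rose, 14% fell and 28.7% were called in either direction. The counts of the supply and regulator lists do not by themselves set the lists apart from these shares. No list, that of glycogen included, was tested against them. Of 8 genes of substrate supply and uptake, 1 rose, 2 fell and 5 missed the threshold, and the median log2 fold change was -0.13. PGM1, a phosphoglucomutase gene, fell by 0.62 ± 0.10, HXK2, for the main hexokinase on glucose, fell by 0.49 ± 0.13, and MAL11, for a transporter that takes up maltose and trehalose, rose by 0.34 ± 0.12. UGP1, which makes the UDP-glucose used by Tps1, stood at -0.20 ± 0.11 and did not pass. Of 7 genes of glycogen, the other reserve carbohydrate, 3 rose, 1 fell and 3 missed the threshold (median 0.13). GLG2 and GLG1, for the glycogenin primers, rose by 1.17 ± 0.15 and 0.54 ± 0.12, and GDB1, for the debranching enzyme, rose by 0.76 ± 0.15, while GPH1, for glycogen phosphorylase, fell by 0.42 ± 0.10. Among 14 regulators of trehalase and of protein kinase A, 4 rose, 1 fell and 9 did not pass, MSN2 and MSN4 among the last. DCS2, for an inhibitor of the decapping scavenger Dcs1, rose by 0.85 ± 0.17 and DCS1 by 0.56 ± 0.13, while TPK3, for a catalytic subunit of protein kinase A, fell by 0.30 ± 0.10.

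All 6 genes repressed by glucose and 6 of 10 stress genes known to respond to Msn2 and Msn4 rose in the HP mutation libraries over HP control. Of the other 4 stress genes, 1 fell and 3 missed the threshold, HSP104 at -0.28 ± 0.14, HSP42 at -0.16 ± 0.13 and DDR2 at 0.12 ± 0.20, and the median of the 10 was 0.46. ALD3, an aldehyde dehydrogenase gene, rose by 1.25 ± 0.22 and the catalase gene CTT1 by 0.75 ± 0.19, while the small chaperone gene HSP26 fell by 0.67 ± 0.13. The glucose-repressed genes had a median of 1.74, led by the acetate transporter gene ADY2 at 2.99 ± 0.34, the lactate transporter gene JEN1 at 2.59 ± 0.28 and the gluconeogenesis gene PCK1 at 1.99 ± 0.20. The summed level of these 6 was 1283 and 1208 CPM in HP mutation, 322 and 231 CPM in nHP mutation, 358 and 212 CPM in HP control, and 358 and 313 CPM in nHP control. It was thus highest in the libraries in which NTH2 and ATH1 were highest, and its part in that result was not tested.

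Within the mutation strain, HP over nHP, 25.2% of all genes rose, 24.1% fell and 49.3% were called in either direction. The counts of the supply and regulator lists therefore do not by themselves set those lists apart. No list, that of glycogen included, was tested against these shares. Of the 7 glycogen genes 4 rose and none fell, with a median of 0.48. The branching enzyme gene GLC3, at 0.48 ± 0.12, joined GLG2 (1.16 ± 0.16), GDB1 (0.74 ± 0.15) and GLG1 (0.60 ± 0.12). Of the supply genes 2 rose (MAL11 and the glucokinase paralog EMI2) and 2 fell (HXK2 and PGM1). Of the regulators 4 rose, DCS2 and DCS1 among them, and 2 fell, the stress-signalling kinase gene RIM15 and BMH1, for a protein that binds and activates phosphorylated Nth1. Of the stress genes 8 rose, led by DDR2 at 1.38 ± 0.20, HSP26 at 1.13 ± 0.13 and ALD3 at 1.11 ± 0.22. The other 2 fell, HSP104 by 0.58 ± 0.14 and HSP42 by 0.50 ± 0.13. All 6 glucose-repressed genes rose, with a median of 1.95. In the control strain none of the genes on these 5 lists was called between HP and nHP, where 1.96% of all genes were called in either direction. Among the nHP libraries, mutation over control, 11.4% of all genes rose, 9.91% fell and 21.3% were called in either direction. No gene of supply, glycogen or regulation was called there. Of the stress genes 2 rose (HSP42 at 0.91 ± 0.14 and HSP104 at 0.70 ± 0.14) and 2 fell (HSP26 at -1.57 ± 0.14 and DDR2 at -0.89 ± 0.20). Of the glucose-repressed genes 1, ICL1, fell by 0.41 ± 0.11.

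**Figure D4:**
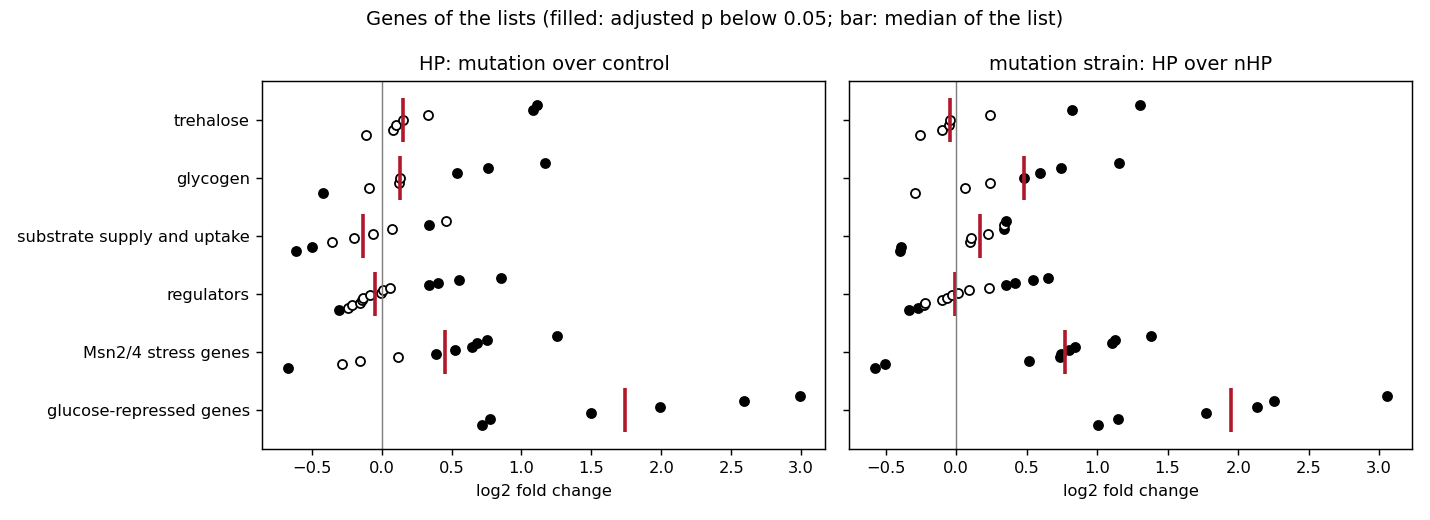
Log2 fold change (horizontal axis) of every gene of the trehalose set and of 5 related lists, in the HP strain comparison (left) and within the mutation strain (right); filled points have an adjusted p below 0.05 and bars mark medians. Trehalose genes split into NTH2 and ATH1 above 0.8 and the other 5 between -0.26 and 0.33, while the glucose-repressed genes all lie above 0.7.

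Likeness of pattern was measured as the root mean square difference between log2 CPM profiles over the 8 libraries, each centred on its own mean, among 5430 other genes. Among themselves, TPS2 and TSL1 were closest, 0.08 apart, followed by TPS1 and TPS2 at 0.08, while NTH2 and ATH1 were 0.21 apart and TSL1 and ATH1 0.59. NTH2 was nearest to GLO1, for glyoxalase I, at 0.07, and then to JID1 and DBP1. ATH1 was nearest to BNA2, which starts NAD synthesis from tryptophan, at 0.07, and then to VMR1 and ATG39. NTH1 was nearest to DOA4, for a ubiquitin hydrolase, at 0.05, and then to GGA1 and UME6. For the synthesis genes the nearest were ENT2, MNR2 and MAM3 to TPS1, HAL5, ZRG8 and EPO1 to TPS2, ZRG8, SED1 and AHA1 to TSL1, and YPR172W, DHH1 and EOS1 to TPS3. NTH2 and ATH1 varied about their own means by 0.47 and 0.59, TPS1 and TPS3 by 0.12 and 0.11, so small distances for TPS1 and TPS3 partly follow from how little they varied.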

How the data were processed

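RNA sequencing was made from total RNA with the NEBNext Ultra kit, per the labels' protocols, and reads were processed with TopHat2 2.0.9, as the submitters' processing notes list. No program for counting, strand setting, build or annotation is named there. The deposited counts are whole reads per gene without normalization. The deposited RPKM could be rebuilt from the counts, each library's total and a single length for each gene, and 95.1% of 5888 lengths were within 1 base of R64.

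Samples were grouped by title. Counts were fitted in R 4.3.3 with edgeR 4.0.16: genes with low counts were removed by edgeR's filter on the groups, libraries scaled by TMM, and all 8 libraries entered 1 quasi-likelihood model of 4 group means with 4 residual degrees of freedom. The 5 contrasts of the report were tested, and a gene was called at a Benjamini-Hochberg adjusted p below 0.05 over all 6174 genes. The script was tested on simulated data. Log2 CPM used a prior count of 2. A count of 0 would allow up to 3 counts, or 0.268 to 0.362 CPM; this covers counting error only. Alternatives were RLE size factors, no composition scaling, no filter, 10 CPM in 2 libraries, DESeq2 1.42.0, limma 3.58.1 on log2 of RPKM plus 1 or 0.1, the replicate number as a block, a fit of only the 4 libraries compared, and leaving out each library. The text names all 7 genes, up to 3 called genes per list and comparison with the largest change together with opposite exceptions, and the 3 genes most like each member in pattern among those at 10 CPM or more; other genes of the lists were named after their values were seen. The members and lists were chosen with earlier results of these data known. Upstream sequences were read with Python 3.11.15 from R64, and figures drawn with matplotlib 3.10.9.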

Additional observations from a re-analysis of the deposited data

Results flagged for a closer look

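The HP difference of NTH2 and of ATH1 differed between the strains by a test of the difference itself. For NTH2 it was larger in the mutation strain by 0.775 on the log2 scale, with an HP over nHP difference of 0.82 ± 0.12 in the mutation strain and 0.05 ± 0.12 in the control strain (edgeR adjusted p = 0.00808). For ATH1 it was larger by 1.0, with 1.31 ± 0.17 in the mutation strain and 0.31 ± 0.17 in the control strain (edgeR adjusted p = 0.0105). Both HP mutation libraries lay above both nHP mutation libraries for each gene, as in 41.1% of all tested genes, with 79.8% not overlapping in either direction. In the control strain the groups overlapped for each gene, where 38.8% of all tested genes did not overlap. Both calls were lost without nHP mutation replicate 2, where the difference stood at 0.66 for NTH2 (edgeR adjusted p = 0.0522) and at 0.84 for ATH1 (edgeR adjusted p = 0.0682).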

How the results depend on the processing

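Of 588 fold changes of the 7 genes recomputed under the alternatives, 503 kept their direction and their side of the threshold, 25 newly passed it, 12 no longer passed and 48 changed sign, all of the last for genes called in neither setting. The calls of NTH2 and ATH1 in the HP strain comparison and within the mutation strain were kept in all 17 alternatives. The cause of the changes below was not tested. Depth did not limit these genes at the level of counting, since the lowest count of any of the 7 in a library was 816 (ATH1), whereas each group had only 2 libraries.

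In the nHP strain comparison, the 1 called member became 0 without composition scaling, with the 10 CPM filter and with limma on RPKM plus 1 or 0.1, 2 with DESeq2, 4 with the replicate block and 3 with only the 4 libraries compared. The block gave 4 in place of 2 called members within the mutation strain, adding NTH1 (higher) and TSL1 (lower), and 220 in place of 121 called genes within the control strain. With only the 4 libraries compared, the HP strain comparison had 1043 called genes in place of 1769 and the control strain 72 in place of 121. The replicate numbers share only a number: correlations of same-numbered deviations between groups ran from -0.0332 to 0.204. In every group the highest correlation was with the same number, a weak hint from the data and not the design. The 2 libraries of a group deviate from its mean by equal and opposite amounts, so they do not count separately. The groups also share these correlations with each other. Leaving out each library gave 432 to 1860 called genes and 0 to 3 members in the nHP strain comparison (1318 and 1 with all 8), 657 to 2593 and 2 to 4 in the HP strain comparison (1769 and 2), 1773 to 3434 and 2 to 3 within the mutation strain (3043 and 2), 53 to 219 and 0 to 1 within the control strain (121 and 0), and 725 to 2598 and 0 to 3 for the difference between the strains' HP differences (1803 and 2). Without composition scaling the split of higher and lower genes was 419 and 1236 in nHP (706 and 612 with TMM), 2106 and 1051 within the mutation strain (1557 and 1486) and 1321 and 576 for the difference of differences (904 and 899). On RPKM plus 1 the splits were 372 and 1139, 2061 and 988, and 1208 and 503.

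Sign changes, none between calls, were as follows. ATH1 in the nHP strain comparison stood at -0.0132 without composition scaling and -0.0262 and -0.0274 on RPKM plus 1 and 0.1. Leaving out each library in turn, it ranged from -0.0612 to 0.296; in the HP strain comparison TPS1 ranged from -0.0723 to 0.321, TPS2 from -0.00723 to 0.358 and TSL1 from -0.133 to 0.354; within the mutation strain TPS1 from -0.063 to 0.0156; within the control strain TPS1 from -0.217 to 0.2, TPS2 from -0.143 to 0.244, TSL1 from -0.135 to 0.374 and NTH2 from -0.109 to 0.197; and for the difference of differences TPS1 from -0.235 to 0.175, TPS2 from -0.338 to 0.044 and NTH1 from -0.164 to 0.179. Within the mutation strain, without composition scaling, TPS1 stood at 0.0816, TPS2 at 0.0249 and TPS3 at 0.0739. On RPKM plus 1 they stood at 0.0818, 0.0231 and 0.0758, and on RPKM plus 0.1 at 0.0818, 0.0232 and 0.0765. With the 10 CPM filter TPS1 stood at 0.0115 and TPS3 at 0.00522. Within the control strain TPS1 stood at -0.0208 without composition scaling, -0.0352 and -0.0353 on RPKM plus 1 and 0.1, and -0.00315 with the replicate block. For the difference of differences TPS1 stood at 0.102, 0.117 and 0.117 without composition scaling and on RPKM plus 1 and 0.1, and at 0.00821 with the 10 CPM filter. NTH1 stood there at 0.143, 0.155 and 0.155 in the same settings, at 0.0508 with the 10 CPM filter, at 0.0186 without a filter and at 0.00309 with the replicate block.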
